A study of Mus musculus with 12 samples.

Results

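The Cyp2b cytochrome P450 subfamily was followed across the livers of Pparβ/δ-/- and wild-type mice fed ethanol or a control diet. Its members were the 5 genes Cyp2b9, Cyp2b10, Cyp2b13, Cyp2b19 and Cyp2b23, chosen by symbol, each measured by 1 probe set that names no other gene, out of 22180 genes measured in this way. Liver RNA was labelled and read with the Mouse Gene 2.0 ST array of Affymetrix, whose probes are spread over the length of each transcript. The 12 arrays formed 4 groups of 3: Pparβ/δ-/- mice on the ethanol diet, Pparβ/δ-/- mice on the control diet, wild-type mice on the ethanol diet and wild-type mice on the control diet. All mice were male, on a C57BL/6 background and 8 to 10 weeks old, and all drank the control liquid diet for 1 week before 16 weeks on either liquid diet, the ethanol one with 4% (v/v) ethanol. Pparβ/δ is the nuclear receptor encoded by Ppard, and Pparβ/δ-/- mice are called null here. The feeding study had 10 mice per group, and the labels do not tie an array to 1 mouse. The errors and p-values therefore cover only the spread among the arrays, which may be technical, and 3 arrays per group limit the precision of every value.

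Cytochromes P450 of the Cyp2b subfamily are membrane-bound monooxygenases of the endoplasmic reticulum that oxidise drugs, steroids and fatty acids. In liver they are found mainly in hepatocytes. Cyp2b10 is the classical target of the constitutive androstane receptor (CAR, gene Nr1i3) and is induced by phenobarbital-like drugs, also through the pregnane X receptor (PXR, gene Nr1i2). Cyp2b9 and Cyp2b13 are known as female-predominant genes of mouse liver, held down in males by the pulsed secretion of growth hormone. Cyp2b19 is known from mouse keratinocytes, where it oxidises arachidonic acid. The 5 genes lie in a cluster with Cyp2a, Cyp2f, Cyp2g and Cyp2s genes on chromosome 7.

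The promoter windows of Cyp2b9, Cyp2b13 and Cyp2b10 are shown because these 3 genes carried the differences described below, and because the first pair is nearly alike in sequence. Each window runs from 250 bases before to 50 bases after the annotated start, on the plus strand of GRCm38.p6, and is taken from RefSeq. Capitals mark matches to TTGCNNAA, a form of the letters bound by C/EBP factors, to ATAAAAG, letters of the TATA box kind, and to AGGTCA, the half-site letters of nuclear receptors. Both strands were searched, and no 2 matches overlapped. The Cyp2b9 window is chr7:26173159-26173458, that of Cyp2b13 is chr7:26061245-26061544 and that of Cyp2b10 is chr7:25897408-25897707.
Cyp2b9: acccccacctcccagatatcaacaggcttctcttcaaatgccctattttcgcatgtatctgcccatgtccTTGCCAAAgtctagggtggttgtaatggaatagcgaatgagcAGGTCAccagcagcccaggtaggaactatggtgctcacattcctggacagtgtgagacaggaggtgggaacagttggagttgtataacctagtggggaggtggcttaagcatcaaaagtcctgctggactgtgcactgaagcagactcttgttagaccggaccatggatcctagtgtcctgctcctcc
Cyp2b13: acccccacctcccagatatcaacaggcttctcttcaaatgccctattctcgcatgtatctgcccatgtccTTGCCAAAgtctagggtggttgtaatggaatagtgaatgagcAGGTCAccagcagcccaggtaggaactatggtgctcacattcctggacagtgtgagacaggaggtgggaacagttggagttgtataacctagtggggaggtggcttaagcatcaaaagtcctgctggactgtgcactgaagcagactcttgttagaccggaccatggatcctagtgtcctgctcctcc
Cyp2b10: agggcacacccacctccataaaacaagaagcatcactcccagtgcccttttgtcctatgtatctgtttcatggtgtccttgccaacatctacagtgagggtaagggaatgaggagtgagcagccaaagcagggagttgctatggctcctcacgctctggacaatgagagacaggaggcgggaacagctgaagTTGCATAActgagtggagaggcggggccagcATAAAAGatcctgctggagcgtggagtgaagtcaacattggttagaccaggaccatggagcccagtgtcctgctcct

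The windows of Cyp2b9 and Cyp2b13 were identical at 298 of 300 bases (99.3%). They differed by T48C and C104T, with the base of Cyp2b9 first, the position counted from 1 at the 5′ end of the window, and the base of Cyp2b13 last. Neither difference lay in a marked motif. Cyp2b10 shared 71.7% of alignment columns with each of the pair. Both Cyp2b9 and Cyp2b13 held TTGCCAAA from -180 to -173 and AGGTCA from -138 to -133 and had no ATAAAAG in the window. Cyp2b10 held TTGCATAA from -58 to -51 and ATAAAAG from -27 to -21, with no AGGTCA. The windows of Cyp2b19 and Cyp2b23 held TTGCATAA, ATAAAAG and AGGTCA. Thus TTGCNNAA was found in 5 of 5 members, AGGTCA in 4 and ATAAAAG in 3, against 10.8%, 16.3% and 5.42% of 32851 RefSeq windows of this length. The 5 windows resemble one another, with 59.1% to 99.3% of alignment columns identical, so they are not independent. The shares are given beside them as a description and not as a test of enrichment. Such matches are letters only and are not evidence of binding.

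**Figure D1:**
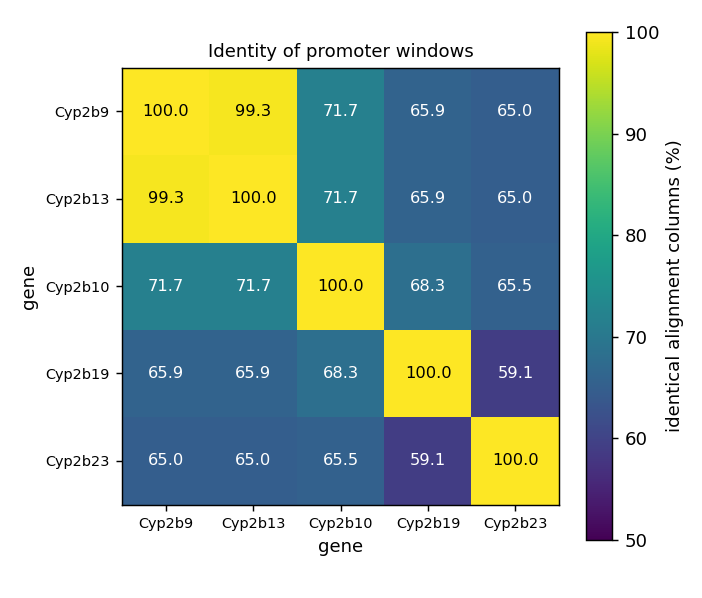
Share of identical columns (%) in global alignments of the 300-base promoter windows, for each pair of the 5 genes on both axes; the colour scale runs from 50 to 100%. The pair of Cyp2b9 and Cyp2b13 stands at 99.3%, and all other pairs lie between 59.1% and 71.7%.

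Intensities are given on the log2 scale. The 40th percentile of all genes lay between 5.61 and 5.71 on the 12 arrays, so values under about 5.7 are read as near background, not as absent. A gene was tested if it lay above that percentile on at least 3 arrays. Of the 5 members 2 passed this filter, Cyp2b9 above it on 6 arrays and Cyp2b10 on 7. Cyp2b13 lay above it on 2 arrays, and Cyp2b19 and Cyp2b23 on 0, so these 3 are described by their values without a test in the main fit. For Cyp2b13 an alternative fit without the filter is given beside its values. The 2 tested members passed through the groups in which they are high, and no count over tested members stands for all 5. Among all genes, 33.5% lay below 5.7 on every array.

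**Figure D2:**
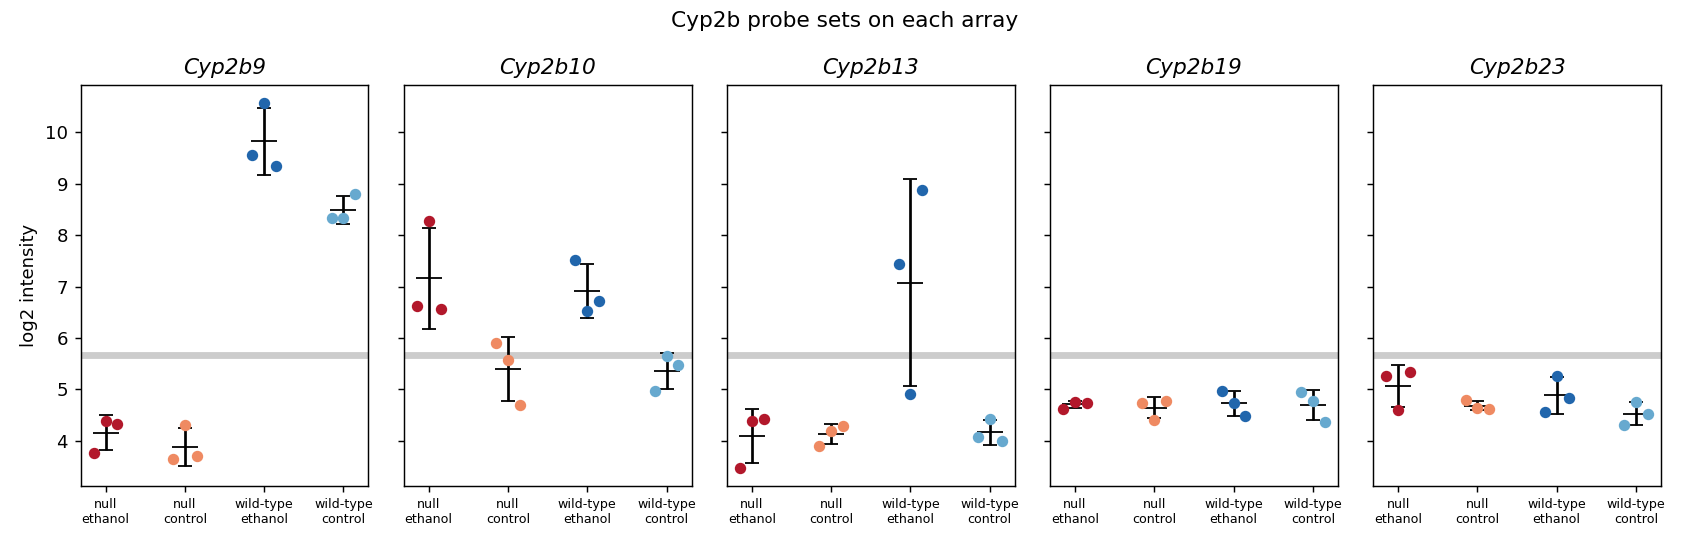
Log2 intensity of each Cyp2b gene (1 panel per gene) on the 12 arrays, by group; dots are arrays, horizontal marks and bars are the mean ± SD (n = 3), and the grey band is the range of the arrays' 40th percentiles (5.61 to 5.71). Cyp2b9 is at 8.33 or above on all wild-type arrays and at 4.38 or below on all null arrays, Cyp2b10 is higher on ethanol in both genotypes, and Cyp2b13 is above the band on 2 wild-type ethanol arrays.

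Hepatocyte markers were bright on all arrays, and the summed level of 8 such genes, among them Alb and Apoa1, lay between 16.30 and 16.48 on the log2 scale. Of the 8 markers 0 passed in the genotype comparison averaged over the diets, and 1 had an unadjusted p under 0.05. Of 7 Kupffer cell markers 6 fell in null livers in that comparison. Their summed level ran from 11.38 to 11.89 in null ethanol and from 12.08 to 12.43 in wild-type ethanol livers, and from 10.95 to 11.48 in null control and from 11.75 to 12.37 in wild-type control livers. Of 6 sinusoidal endothelial markers 2 fell, of 6 stellate cell markers 1 fell, and of 3 tested cholangiocyte and 3 tested lymphocyte markers 0 passed. Among all tested genes 3.98% fell in null livers averaged over the diets. For ethanol averaged over the genotypes 0 Kupffer cell markers passed, with 4 higher at an unadjusted p under 0.05 in limma. Of all tested genes 0.0143% passed in that comparison and 12.1% had such a p-value in either direction. Each marker of both lists lay above 5.7 on all 12 arrays, and the part of these cells in the results on Cyp2b genes was not tested. In such bulk samples, fewer cells of a type and less RNA per cell cannot be told apart. Ppard itself had a log2 intensity between 7.64 and 8.06 on all arrays and differed by 0.08 ± 0.08 between null and wild-type livers (SE; limma adjusted p = 0.621). No source used here says whether its probes lie inside the deleted stretch, and its level therefore checks no genotype label.

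The comparison of null with wild-type livers asked how the absence of Pparβ/δ goes with the level of each gene. Cyp2b9 fell in null livers on both diets and lay near background on every null array. On the ethanol diet its log2 intensities were 3.76, 4.38 and 4.33 in null livers, against 9.56, 10.57 and 9.35 in wild-type livers. On the control diet they were 3.64, 4.31 and 3.70 in null livers, against 8.33, 8.33 and 8.80 in wild-type livers. The highest null array, at 4.38, stood far under the lowest wild-type array, at 8.33. Null livers averaged 4.16 ± 0.35 and wild-type livers 9.83 ± 0.65 on ethanol, and null livers averaged 3.88 ± 0.37 and wild-type livers 8.49 ± 0.27 on the control diet (SD, n = 3 each).

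The change of Cyp2b9 was -5.67 ± 0.29 on the ethanol diet (SE; 50.9-fold lower; limma adjusted p = 1.34e-07) and -4.60 ± 0.29 on the control diet (24.3-fold lower; adjusted p = 1.28e-06). Averaged over the diets it was -5.14 ± 0.20, with a 95% confidence interval from -5.57 to -4.70 (adjusted p = 4.84e-09). Because the null arrays were near background, these folds depend on the background level. Set against the 40th percentile of each null array, Cyp2b9 was at least 17.5-fold lower on ethanol and at least 7.22-fold lower on the control diet. Of the 2 tested members Cyp2b9 was the 1 that fell in each comparison, where 1.33% of 14031 genes fell on the ethanol diet, 1.89% on the control diet and 3.98% averaged over the diets. In either direction the shares were 1.79%, 5.1% and 7%. Non-overlap in this direction was found for 14.4% of genes on the ethanol diet and 10% on the control diet. The groups of Cyp2b9 did not overlap over 6 null and 6 wild-type arrays, as was so for 2.11% of tested genes in the same direction. The order of the group means was wild-type ethanol, wild-type control, null ethanol and null control, and the last 2 overlapped in range.

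Cyp2b10 did not pass in any comparison of genotypes. On the ethanol diet its log2 intensities were 6.63, 8.28 and 6.56 in null livers, against 7.52, 6.51 and 6.72 in wild-type livers. On the control diet they were 5.89, 5.58 and 4.69 in null livers, against 4.96, 5.65 and 5.47 in wild-type livers. The genotypes overlapped on each diet. The difference was 0.24 ± 0.43 on ethanol (SE; limma adjusted p = 0.835) and 0.03 ± 0.43 on the control diet (adjusted p = 0.978). Averaged over the diets, it was 0.13 ± 0.30, with a 95% interval from -0.52 to 0.79, so a genotype difference of up to 0.79 on the log2 scale lies within the interval. Without null ethanol 2, its brightest array, the averaged difference was -0.15 and that on ethanol -0.32.

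Cyp2b13 stood out on 2 arrays, both of wild-type mice on ethanol. Its log2 intensities were 3.48, 4.38 and 4.41 in null ethanol livers, against 7.44, 4.91 and 8.88 in wild-type ethanol livers. On the control diet they were 3.90, 4.19 and 4.28 in null livers, against 4.07, 4.43 and 3.99 in wild-type livers. All 9 arrays of the other groups were near background, as was wild-type ethanol 2. The mean of the wild-type ethanol group (7.08 ± 2.01, SD, n = 3) was thus near wild-type ethanol 1 but far from wild-type ethanol 2 and 3. With 2 of 3 arrays above background, this mean was at least 2.60-fold above the percentile of the null ethanol arrays. That bound rests on single arrays and was 5.51-fold without wild-type ethanol 2 and 1.39-fold without wild-type ethanol 3, in an alternative added after the data were seen. A fit without the filter gave a difference of -2.99 ± 0.68 on ethanol, which did not pass (limma adjusted p = 0.0743). This SE pools the 4 groups, whose SD was 2.01 in wild-type ethanol, 0.53 in null ethanol, 0.20 in null control and 0.24 in wild-type control livers. It therefore understates the spread of the wild-type ethanol arrays, and this p-value is not a reliable test.

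Cyp2b19 and Cyp2b23 were near background on 12 of 12 arrays. Cyp2b19, the keratinocyte epoxygenase, lay between 4.37 and 4.97, and the 4 group means lay between 4.64 and 4.73. Cyp2b23 lay between 4.30 and 5.34, with group means of 5.06 in null ethanol, 4.68 in null control, 4.88 in wild-type ethanol and 4.52 in wild-type control livers. The groups of both genes overlapped in all comparisons. Of 4 measured keratinocyte markers, Krt14 and Trp63 were below the filter and Krt10 and Lor passed it, and 0 of these 2 were called in any comparison of genotypes or diets, with 2 at an unadjusted p under 0.05 for genotype averaged over the diets.

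**Figure D3:**
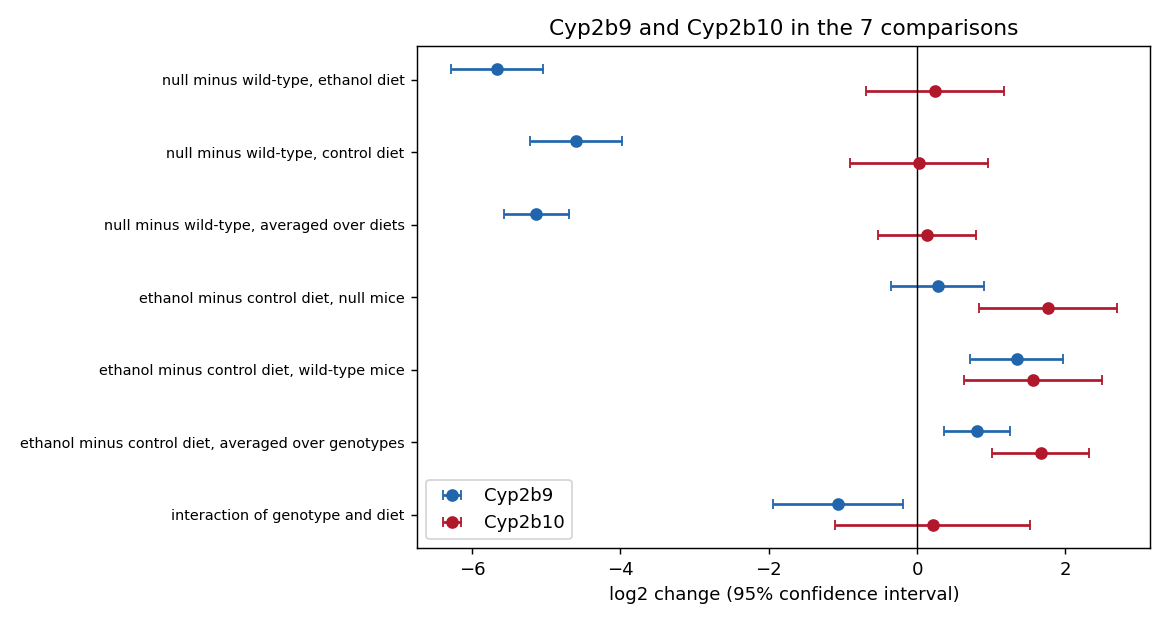
Log2 change (dots) with 95% confidence intervals (bars) of the 2 tested genes, Cyp2b9 (blue) and Cyp2b10 (red), in the 7 comparisons listed down the page. The genotype intervals of Cyp2b9 lie between -6.29 and -3.98, and the ethanol intervals of Cyp2b10 lie above 0 although none passed after adjustment over 14031 genes.

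The comparison of ethanol with control diet asked how 16 weeks of ethanol go with the level of each gene within a genotype. Cyp2b10, the CAR target, lay higher on ethanol on every array. The 6 ethanol arrays of both genotypes spanned 6.51 to 8.28, against 4.69 to 5.89 on the 6 control arrays, and the nearest arrays of the 2 diets were thus 6.51 and 5.89. Null livers averaged 7.16 ± 0.97 on ethanol and 5.39 ± 0.62 on the control diet, and wild-type livers averaged 6.92 ± 0.53 on ethanol and 5.36 ± 0.35 on the control diet (SD, n = 3 each). The difference was 1.77 ± 0.43 in null livers (SE; limma adjusted p = 0.248) and 1.56 ± 0.43 in wild-type livers (adjusted p = 0.147). Averaged over the genotypes it was 1.66 ± 0.30, with a 95% interval from 1.01 to 2.32, and did not pass (adjusted p = 0.0947).

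Diets that do not overlap over 6 ethanol and 6 control arrays were found for 0.0998% of 14031 tested genes in this direction, 14 genes in all. Within null livers 5.59% of genes and within wild-type livers 10.8% had higher ethanol arrays without overlap. All 3 wild-type control arrays of Cyp2b10 and 2 of 3 null control arrays were below their percentile. Against the percentile, its wild-type ethanol mean was at least 2.36-fold higher. Array wild-type control 2 bears on the call: without it the averaged difference was 1.74 (limma adjusted p = 0.0339), and with any other array left out the adjusted p stayed over 0.05 and reached 0.249. Without that array 811 genes in place of 13 were called for ethanol in wild-type livers, and 293 in place of 2 averaged over the genotypes.

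Cyp2b9 lay higher on ethanol in wild-type livers, where its arrays did not overlap, and near background on both diets in null livers. In wild-type livers the difference was 1.34 ± 0.29 (SE; 2.53-fold; limma adjusted p = 0.0914), with a 95% interval from 0.72 to 1.96. In null livers it was 0.28 ± 0.29 (adjusted p = 0.709), between values that have no firm order under the background. The interaction of genotype and diet for Cyp2b9 was -1.06 ± 0.41 and did not pass (adjusted p = 0.265). Since all null arrays were near background, this value cannot tell whether the ethanol difference of Cyp2b9 depends on genotype. For Cyp2b10 the interaction was 0.21 ± 0.61, with a 95% interval from -1.10 to 1.52 (adjusted p = 0.895). The interaction was called for 0 of the 2 members and for 0.0143% of tested genes.

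Limma thus called 0 of the 2 tested members for ethanol in wild-type, in null or in averaged livers, where 0.0855%, 0% and 0.00713% of 14031 genes were called higher and 0.0927%, 0.00713% and 0.0143% in either direction. At an unadjusted p under 0.05, 2 of 2 members were higher in wild-type livers, 1 (Cyp2b10) in null livers and 2 averaged over the genotypes. Such p-values were found for 14.5%, 12.2% and 12.1% of all tested genes. For Cyp2b13, not tested in the main fit, a fit without the filter gave 2.92 ± 0.68 for ethanol in wild-type livers (limma adjusted p = 0.192). This SE too pools the 4 groups and understates the spread of the wild-type ethanol arrays.

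Within the wild-type ethanol group the arrays with the highest Cyp2b9 and the highest Cyp2b13 differed. Relative to the wild-type control mean, Cyp2b9 differed by 1.07, 2.08 and 0.87 on wild-type ethanol arrays 1, 2 and 3. Cyp2b13 differed by 3.28, 0.75 and 4.72 on the same arrays. The array with the brightest Cyp2b9 was thus the one on which Cyp2b13 stayed below 5.7. On the 3 wild-type control arrays Cyp2b9 lay at 8.33 or above while the Cyp2b13 probe set lay at 4.43 or below, so Cyp2b13 was near background on arrays with bright Cyp2b9. As a description, Pearson's r between the 2 genes was 0.55 and Spearman's rho 0.70 over the 12 arrays, which share the genotype gap, and 0.37 and 0.60 over the 6 wild-type arrays. Which letters the probes of the members match was not checked, and values of these similar genes are uncertain as to the member measured.

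Cyp2a4, which lies between Cyp2b9 and Cyp2b23 and encodes a steroid 15α-hydroxylase that is also female-predominant, was set beside them after its values were seen. Relative to the wild-type control mean it differed by 1.18, -0.32 and 1.26 on wild-type ethanol arrays 1, 2 and 3. The 2 arrays with bright Cyp2b13 were also the 2 wild-type arrays with the highest Cyp2a4. In null livers Cyp2a4 was higher still, with 12.16, 11.44 and 11.80 on ethanol and 11.93, 11.67 and 11.87 on the control diet, against 11.16, 9.65 and 11.23 in wild-type ethanol and 9.79, 10.13 and 10.00 in wild-type control livers. It rose in null livers by 1.48 ± 0.23 averaged over the diets (SE; 2.80-fold; limma adjusted p = 0.00201), the opposite direction to Cyp2b9. On the control diet the rise was 1.85 ± 0.32 (adjusted p = 0.00722), while the difference of 1.12 ± 0.32 on the ethanol diet did not pass (adjusted p = 0.108). The interaction of genotype and diet for Cyp2a4 did not pass either (-0.73 ± 0.46, adjusted p = 0.46). Its near-identical neighbour Cyp2a5 makes the member measured uncertain here too.

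**Figure D4:**
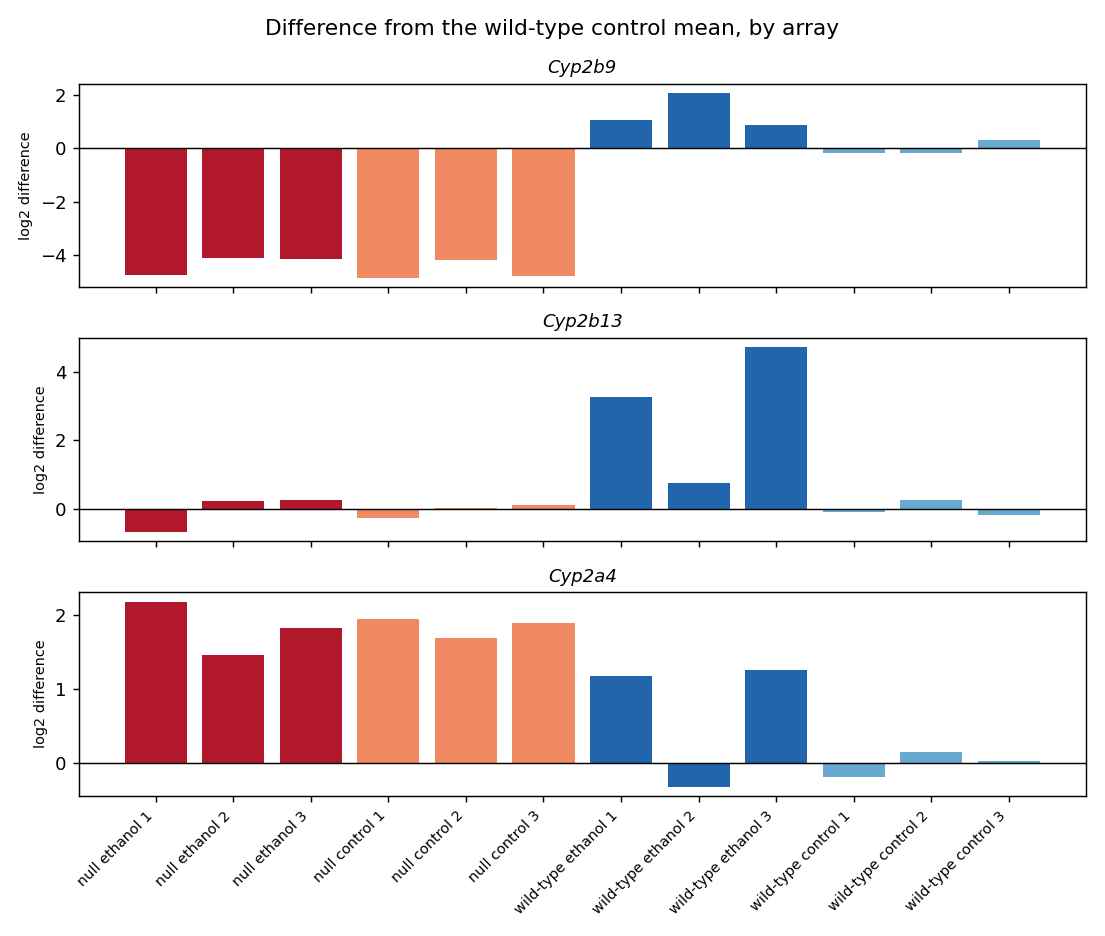
Log2 difference of each of the 12 arrays from the mean of the 3 wild-type control arrays (bars), for Cyp2b9, Cyp2b13 and Cyp2a4 (panels). Cyp2b13 and Cyp2a4 are high on wild-type ethanol arrays 1 and 3 and not on 2, and on the null arrays Cyp2b9 lies between -4.85 and -4.10 and Cyp2a4 between 1.47 and 2.19.

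Of the 7 tested P450 genes among 8 listed neighbours on chromosome 7, Cyp2a4 was the 1 that rose and 0 fell in null livers averaged over the diets, where 3.01% of tested genes rose and 3.98% fell. The coumarin-oxidising Cyp2a5 differed by -0.61 ± 0.37 (SE; limma adjusted p = 0.372). The median change of these 7 genes was -0.05, against -0.000471 over all tested genes.

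Among other female-predominant genes of the liver that could be tested, 0 were called lower in null livers averaged over the diets. Of the list 16 were measured, and those below the filter were not tested. A gene near background in wild-type livers could not be seen to fall, so this count of 0 speaks only for brighter genes. Of 11 tested genes of 19 listed, 2 rose and 0 fell in null livers averaged over the diets, where 3.01% of all tested genes rose. At an unadjusted p under 0.05 in limma 3 were higher and 1 lower. Abcd2, a peroxisomal fatty acid transporter, rose by 1.15 ± 0.22 (SE; adjusted p = 0.00804), and Slc22a27, an organic anion transporter, by 0.89 ± 0.22 (adjusted p = 0.0263). Slc22a27 passed the filter through null arrays alone (6.49, 5.83 and 5.85). All its wild-type arrays were near background, between 4.38 and 5.31, so the size of its rise depends on the background level. Leaving out 1 array at a time, the count of 2 became 1 when the array was null control 1, null control 2, null ethanol 1, wild-type ethanol 2, wild-type control 1 or wild-type control 2, and 1 gene fell when it was null control 1. The arachidonic acid hydroxylase Cyp2c40 differed by -0.30 ± 0.10 (adjusted p = 0.0902). The median of the list was 0.10.

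Male-predominant genes, 17 tested of 19 listed, had 4 lower and 1 higher in null livers (limma, averaged over the diets). Among all tested genes 3.98% fell and 3.01% rose. Cyp4a12b fell by 1.85 ± 0.24 (SE; adjusted p = 0.000463), Elovl3, a fatty acid elongase, by 1.17 ± 0.20 (adjusted p = 0.00436), the complement gene C6 by 0.62 ± 0.14 (adjusted p = 0.0173) and Cyp7b1, an oxysterol hydroxylase named after its values were seen, by 0.60 ± 0.15 (adjusted p = 0.029). The fatty acid hydroxylase Cyp4a12a rose by 0.84 ± 0.13 (adjusted p = 0.00187), and Cyp4a12a and Cyp4a12b are near-identical. Which of the pair each probe set measures was not checked, so their opposite directions are uncertain as to the gene. The median of the list was -0.15, and without null control 2 the number that rose was 2.

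Growth hormone signalling genes, 12 tested of 12 listed, had 2 lower and 0 higher in null livers in the same comparison. In it 3.98% of all tested genes fell. Igf1 fell by 0.46 ± 0.10 (SE; limma adjusted p = 0.0118) and Igfals, which encodes a subunit that carries Igf1 in blood, by 0.40 ± 0.10 (adjusted p = 0.0258). Socs2, a feedback inhibitor of growth hormone signalling, differed by -1.15 ± 0.41 (adjusted p = 0.117), and Bcl6, a repressor of female-predominant genes in male liver, by 0.79 ± 0.51 (adjusted p = 0.408). The count was 4 when wild-type ethanol 1 was left out, and 1 when null control 3, null ethanol 2 or null ethanol 3 was. Median change over the list was -0.18.

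The receptors and factors that act on Cyp2b genes, 15 tested of 16 listed, had 0 called for genotype or for ethanol, each averaged over the other factor. Among all tested genes 7% were called for genotype and 0.0143% for ethanol. At an unadjusted p under 0.05 limma had 0 of the list higher and 1 lower for genotype, and 0 higher and 2 lower for ethanol. For ethanol 12.1% of all tested genes had such a p-value. Nr1i3 (CAR) had log2 intensities from 10.95 to 11.90 and differed by 0.26 ± 0.13 between null and wild-type livers (SE; limma adjusted p = 0.251) and by 0.13 ± 0.13 between ethanol and control diet (adjusted p = 0.698). Nr1i2 (PXR) differed by 0.09 ± 0.10 for genotype (adjusted p = 0.657) and by 0.21 ± 0.10 for ethanol (adjusted p = 0.418). The member of the list with the smallest p for genotype was Esr1, the oestrogen receptor, at -0.50 ± 0.16 (adjusted p = 0.0755). When null control 1 was left out, 1 gene of this list fell.

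Other targets of CAR and PXR, 19 tested of 25 listed, had 0 called for ethanol averaged over the genotypes, with 2 higher and 1 lower at an unadjusted p under 0.05 in limma. In this comparison 0.0143% of all tested genes were called and 12.1% had such a p-value. A count of 0 is thus near the share over all genes, and Cyp2b10 was not called either. The median change of these 19 targets was 0.01, against -0.02 over all tested genes and 1.66 for Cyp2b10. In wild-type livers their median was 0.11 (15 positive, 4 negative), with 4 higher and 1 lower at an unadjusted p under 0.05 in limma. In null livers it was -0.03 (7 positive, 12 negative), with 0 higher and 3 lower. Such p-values were found for 14.5% and 12.2% of all tested genes. The interaction was negative for 15 targets and positive for 4, and 0 were called. Cyp3a11, the main drug-induced Cyp3a gene, lay 0.53 ± 0.15 higher with ethanol (SE; limma adjusted p = 0.249), with 0.34 ± 0.21 in null and 0.72 ± 0.21 in wild-type livers. For genotype averaged over the diets 0 of the 19 passed, with 6 higher and 0 lower at an unadjusted p under 0.05. In place of 0, 1 gene rose when null control 1 or null ethanol 1 was left out. On the control diet alone 1 of the 19 rose, with 8 higher and 0 lower at an unadjusted p under 0.05, and on the ethanol diet 0 passed, with 1 higher and 1 lower. For genotype no share of all tested genes at an unadjusted p under 0.05 is given, here or for the other lists. Such counts are therefore a description only. After adjustment 5.1% of all tested genes were called in either direction on the control diet and 7% averaged over the diets. The gene that rose was Gstm1, a glutathione transferase of a family of similar genes, with 0.45 ± 0.09 (SE; limma adjusted p = 0.0173). The control-diet count was 3 without null ethanol 3, 2 without null control 1 or wild-type control 2, and 0 without wild-type control 3.

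Among the remaining lists 0 genes passed for ethanol averaged over the genotypes. Of all tested genes 0.0143% were called in this comparison, and 12.1% had an unadjusted p under 0.05 in limma. Of the male-predominant genes 6 were lower and 0 higher at an unadjusted p under 0.05 in limma, and Hsd3b5, a steroid ketoreductase, differed by -1.24 ± 0.34 (SE; adjusted p = 0.233). Of the female-predominant genes 1 was higher at that level, the transporter gene Slc22a26, with 0.44 ± 0.15 (adjusted p = 0.3). Of the growth hormone signalling genes 1 was higher and 4 were lower, among them Stat5b, which carries the signal to the nucleus, with -0.22 ± 0.08 (adjusted p = 0.318).

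**Figure D5:**
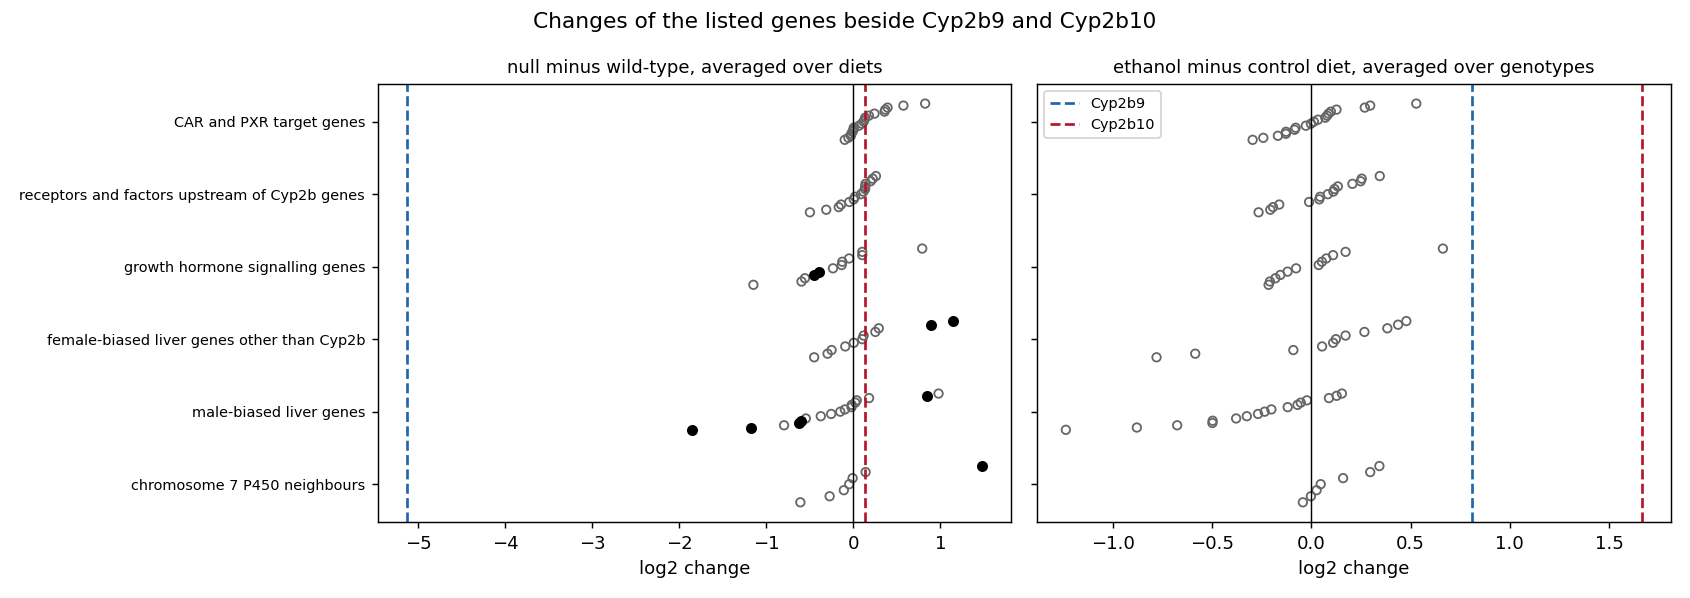
Log2 change of each tested gene of the 6 lists named down the page, for null minus wild-type livers (left) and ethanol minus control diet (right), each averaged over the other factor; filled dots passed at an adjusted p under 0.05, open dots did not, and dashed lines mark Cyp2b9 and Cyp2b10. Cyp2b9, at -5.14 for genotype, and Cyp2b10, at 1.66 for ethanol, lie outside the range of the listed genes in these panels.

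The genes whose pattern was most like that of a member were ranked by Pearson's correlation of log2 intensity over the 12 arrays, among 12769 tested genes. The arrays of each member fall into the study's groups, so these correlations describe mainly shared group differences and are given as likeness, without a test. For Cyp2b9 the nearest genes were Lyrm7 (r = 0.98), Cd300e (0.96), Mme (0.96), Mug2 (0.95) and Zfp982 (0.95). All 5 were lower in null livers, and their likeness rests on the gap between the genotypes. For Cyp2b10 they were Cyp2d40 (r = 0.88), Zbtb16 (0.86), Cacna2d2 (0.85), P4hb (0.83) and Ripor3 (0.82). The group means of Cacna2d2 (5.55 to 5.69) and Ripor3 (5.63 to 5.80) lay at or near background. Those of P4hb differed little, from 12.29 to 12.38. Group means of Zbtb16, a transcriptional repressor, were 9.65 in null ethanol and 8.25 in null control livers, and 10.19 in wild-type ethanol and 8.07 in wild-type control livers.

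After the group means were subtracted, the genes nearest to Cyp2b10 were Tollip (r = 0.95), Zfp579 (0.94), Aurkc (0.92), Aldh1a7 (0.89) and Atg4c (0.86). The group means of Zfp579 (5.60 to 5.82) lay at or near background. Aldh1a7, an aldehyde dehydrogenase, was on the list of CAR and PXR targets. Its group means were 10.30 in null ethanol and 10.54 in null control livers, and 10.11 in wild-type ethanol and 10.46 in wild-type control livers. Its group means thus lay lower on ethanol, without passing the test (limma adjusted p = 0.291), where those of Cyp2b10 lay higher.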

How the data were processed

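Per the submitters' processing notes, the deposited intensity of each probe set comes from RMA, which corrects background and normalises arrays to one another. The values spanned 1.816 to 20156 and are linear, so their log2 was used. No source used here names a software version or genome build. RNA was taken up with the RNeasy kit and 100 ng of it labelled with the Ambion and Affymetrix WT kits, per the labels' protocols.

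Of 41345 probe sets, 23521 named exactly 1 gene and 1814 several. For each gene the brightest such probe set by mean over the 12 arrays was kept, giving 22180 genes, and each member had 1. Genes above the 40th percentile of their array on at least 3 arrays were tested (14031). Group means over the 12 arrays were fitted in limma 3.58.1 (R 4.3.3; 8 residual and 4.95 prior degrees of freedom). The Benjamini-Hochberg adjustment ran over all tested genes of a comparison, with 0.05 as the threshold. Array medians lay between 5.55 and 5.62. The fit was tested on simulated data. The alternatives were a replicate block, no filter, quantile normalisation, a floor at the 40th percentile, 32 added before log2, a trend with robust eBayes, array weights, fits of 2 groups, means of probe sets and each array left out.

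The 5 members and the gene lists were chosen with earlier results of these data known. Named were the members, Ppard, Nr1i3, Nr1i2, Bcl6, up to 4 genes of each list by smallest p in a comparison, and the 5 genes nearest to a member, without predicted genes, clones, small RNAs and olfactory or vomeronasal receptors. Promoter windows are from RefSeq (GRCm38.p6), aligned with Biopython 1.88 (match 2, mismatch -1, gap opening -5, extension -1).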

Additional observations from a re-analysis of the deposited data

How the results depend on the processing

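The fall of Cyp2b9 in null livers kept its direction and passed limma's threshold under every alternative run, with a change between -5.91 and -4.13 on the ethanol diet and between -4.82 and -2.85 on the control diet, the smallest of each with values floored at the 40th percentile. The ethanol difference of Cyp2b9 in wild-type livers passed with 32 added before log2 (1.27, adjusted p = 0.0456) and with array weights (1.24, adjusted p = 0.0373), so that 1 member was called in place of 0, and ran from 0.97 to 1.58 with 1 array left out. The ethanol difference of Cyp2b10 averaged over the genotypes passed with array weights (1.86, adjusted p = 0.0231) and without wild-type control 2 (1.74, adjusted p = 0.0339), again 1 member in place of 0, and ran from 1.38 to 1.81 with 1 array left out. The genotype difference of Cyp2b10 had no stable sign. With 1 array left out it ran from -0.32 to 0.54 on the ethanol diet, from -0.22 to 0.38 on the control diet and from -0.15 to 0.31 averaged over the diets, and its interaction from -0.35 to 0.51. It was negative without null ethanol 2 (-0.32 on ethanol, -0.15 averaged, -0.35 for the interaction), null control 1 (-0.22 on the control diet), null control 2 (-0.07) and wild-type control 1 (-0.17), and for the interaction without null control 3 (-0.14). The cause was not tested. No sign of pairing by replicate number was seen, with 2 of 18 same-numbered pairs at a correlation of deviations over 0.1 (from -0.15 to 0.19). With 3 arrays per group this cannot exclude a shared origin, and no label says what the replicate number shares. The replicate block changed no call of a member (Cyp2b9 averaged over the diets -5.14, adjusted p = 2.46e-08; Cyp2b10 on ethanol averaged over the genotypes 1.66, adjusted p = 0.119), and over all genes it left 0 in place of 1 call for ethanol in null livers and 0 in place of 2 averaged over the genotypes. Array weights called 832 genes in place of 13 for ethanol in wild-type livers and 133 in place of 2 averaged over the genotypes, and 829 in place of 251 for genotype on the ethanol diet, 1631 in place of 715 on the control diet and 1863 in place of 982 averaged over the diets. Without the filter 393 genes were called for genotype on the control diet, and 239 in a fit of its 2 groups. Signal near background limits the folds of Cyp2b9 and leaves Cyp2b13, Cyp2b19 and Cyp2b23 without an order of levels.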

Other observations

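The genes around the Cyp2b cluster on chromosome 7 were counted after the data were seen, as the 20 tested genes on each side, 40 in all, of which 6 are P450 genes. For genotype 1 of the 40 was called on the ethanol diet (2.5%, against 1.79% of all tested genes), 4 on the control diet (10%, against 5.1%) and 2 averaged over the diets (5%, against 7%). Tgfb1, which encodes a fibrogenic cytokine, fell in null livers by 0.41 ± 0.09 averaged over the diets (SE; limma adjusted p = 0.014). Ceacam2, a cell adhesion gene, rose by 0.74 ± 0.13 (adjusted p = 0.00368).

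The genes most like Cyp2b13 over the 12 arrays, listed after the data were seen, were Rhbdf2 (r = 0.86), Slc2a1 (0.86), Spon1 (0.82), Btbd11 (0.82) and Slc16a5 (0.81). Slc2a1 and Slc16a5 encode transporters, of glucose and of the monocarboxylate family. Their group means were highest in wild-type ethanol livers, where Cyp2b13 was above background on 2 arrays, with 9.35 for Slc2a1 and 8.79 for Slc16a5, against 8.72 and 7.76 in wild-type control livers. These correlations are given as a description, and the arrays share their group differences. Cyp2b13 was near background on all arrays but these 2, on which Pearson's r thus strongly depends. Spearman's rho was lower, with 0.62 for Rhbdf2, 0.78 for Slc2a1, 0.47 for Spon1, 0.59 for Btbd11 and 0.55 for Slc16a5. The group means of Spon1 (5.73 to 5.90) and Btbd11 (5.60 to 6.06) lay at or near background.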
